A study of Mus musculus with 12 samples.

Results

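Mitosis genes encode the proteins that carry a cell from the end of DNA replication through chromosome segregation to the cut that separates the daughter cells. The 40 genes described here are a named list, from Mki67 to Cdca3, matched by symbol to the rows of the count table; all 40 were found among 56832 gene rows, and the matching rule uses no measured value. They were grouped by known role into 8 sets: mitotic cyclins and kinases, the chromosomal passenger complex, centromere and kinetochore proteins, the spindle checkpoint, the anaphase promoting complex with separase, spindle motors and microtubule proteins, cytokinesis proteins, and the pair formed by the proliferation antigen Mki67 and the topoisomerase Top2a.

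RNA-seq was performed on mouse bone marrow cells sorted by flow cytometry as macrophages, gated for the leukocyte marker CD45 and the macrophage marker F4/80 and against Ly6g and Ly6c. The leukemic group held 6 libraries, 3 from females and 3 from males, from mice that had received transplanted bcCML model leukemia cells and were at day 11, a late stage of disease. The non-leukemic group held 6 libraries, again 3 from each sex, from healthy mice. The labels state no strain, age or genotype, and do not say whether each library came from a separate mouse, so p-values measure the spread between these libraries, which may be technical. Nor do they say whether transplanted leukemia cells were kept apart from host macrophages in the sort.

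Entry into mitosis is driven by the kinase Cdk1 bound to cyclin A or cyclin B, with Aurora and Polo-like kinases building the spindle. Kinetochores join chromosomes to spindle fibres, and a checkpoint holds back the anaphase promoting complex, the ubiquitin ligase that triggers separation, until every chromosome is attached. Transcripts of these genes accumulate late in the cell cycle and fall in resting cells, so they are widely read as a measure of dividing cells; most macrophages in tissue divide rarely, whereas marrow precursors of blood cells divide often.

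Total counts ran from 22437689 to 30014855 in leukemic libraries and from 16911827 to 26611831 in non-leukemic libraries. Every mitosis gene was well covered, with no fewer than 516 counts in any library, and all 40 passed the filter on low counts. Levels are given as CPM, a gene's counts scaled to the total of its library; lists of 6 values run through the 3 female libraries and then the 3 male libraries, in the order of their replicate numbers.

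All 12 macrophage markers examined, Adgre1 (which encodes F4/80) among them, had counts in every library. Adgre1, a gene of the sort gate, measured 28.4 to 60.6 CPM in leukemic and 75.9 to 258 CPM in non-leukemic libraries. The summed level of the 12 markers was 499 to 1171 CPM in leukemic libraries and 1235 to 4582 CPM in non-leukemic libraries. Other cell types were also visible: 14 erythroid precursor markers summed to 1608 to 3149 CPM in leukemic libraries and to 14170 to 24190 CPM in non-leukemic libraries, and 9 late neutrophil markers to 6469 to 18050 CPM in leukemic and 22140 to 52790 CPM in non-leukemic libraries. Ly6g itself, a gene of the exclusion gate, measured 4.76 to 24.2 CPM in leukemic and 31.1 to 77.9 CPM in non-leukemic libraries. Of the Ly6c genes, also of that gate, Ly6c2 measured 121 to 410 CPM in leukemic and 173 to 450 CPM in non-leukemic libraries, which overlapped. Ly6c1 measured 0.0666 to 1.55 CPM in leukemic and 0.0998 to 0.559 CPM in non-leukemic libraries. One leukemic library, replicate 1 of the females, and the third replicate of the non-leukemic males stood apart from the libraries of their own groups, as described further on. Values without them are given beside some of the results.

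Expression of mitosis genes was lower in leukemic macrophage samples than in non-leukemic ones. Of the 40 genes, 22 fell, by the edgeR quasi-likelihood test with sex as a term and Benjamini-Hochberg adjustment over 15758 genes at an adjusted p under 0.05, against 9.2% of all genes tested that were lower. None rose, against 8.71% of all genes tested; edgeR, DESeq2 and limma-voom each found 0 higher members, and 0 also at an unadjusted p under 0.05. The log2 fold changes (leukemic over non-leukemic) ran from -1.25 for Mki67 to 0.11 for Pttg1 with a median of -0.48, and 39 of 40 were negative, while the median over all genes tested was -0.01. Of the 22 genes, 13 passed in each of the 12 fits that left out 1 library. The other 9 missed the threshold in at least 1 of them: Ccnb1 in 1, Ube2c in 2, Hmmr in 6, Cdk1, Cdca8 and Nuf2 in 7 each, Cenpe in 8, Prc1 in 9 and Dlgap5 in 10. Their adjusted p then reached from 0.0549 for Ube2c, without male leukemic replicate 1, to 0.147 for Dlgap5, without male non-leukemic replicate 1. The count of genes that fell was 14 without male non-leukemic replicate 1 (6.14% of all genes tested) and was 24 without male non-leukemic replicate 3 (9.94%). In bulk RNA, fewer dividing cells and less mitotic RNA per cell cannot be told apart.

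**Figure D1:**
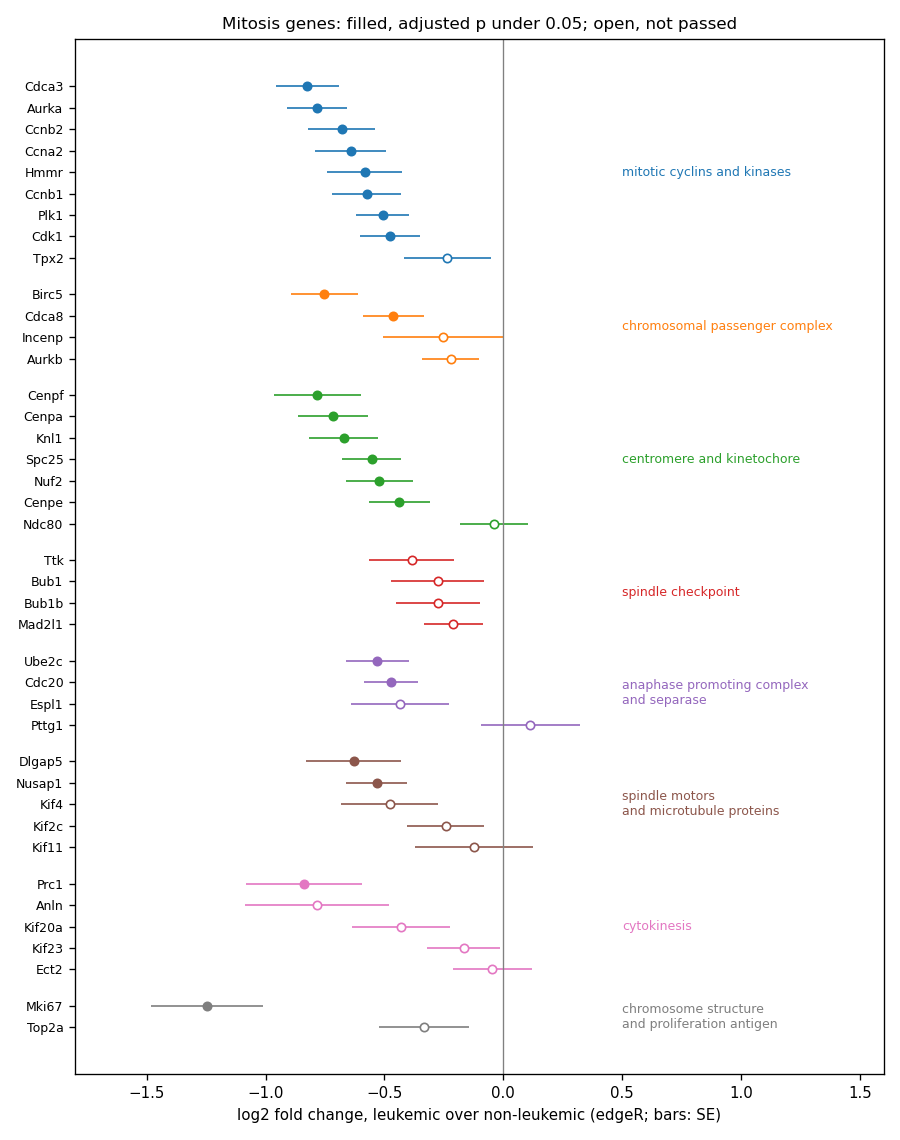
Log2 fold change of each of the 40 mitosis genes (x axis, leukemic over non-leukemic; bars, standard error; filled points, adjusted p under 0.05), in rows by role. All but Pttg1 lie to the left of 0, and filled points run from Mki67 at -1.25 to Cenpe at -0.44.

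Summed over the 40 genes, mitotic transcripts measured 5399, 8492, 6902, 8213, 8706 and 7869 CPM in leukemic libraries, against 11020, 10240, 10700, 12270, 9775 and 6931 CPM in non-leukemic libraries. The means were 7597 ± 1249 and 10155 ± 1792 CPM in leukemic and non-leukemic libraries (SD, n = 6 each). The leukemic values all lay below 5 of the 6 non-leukemic ones, and the groups overlapped through male non-leukemic replicate 3, at 6931 CPM. That library also had the lowest erythroid sum of its group, 14170 CPM, and the highest macrophage sum, 4582 CPM. As a share of counts, the 40 genes took 0.540% to 0.871% in leukemic and 0.693% to 1.23% in non-leukemic libraries.

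**Figure D2:**
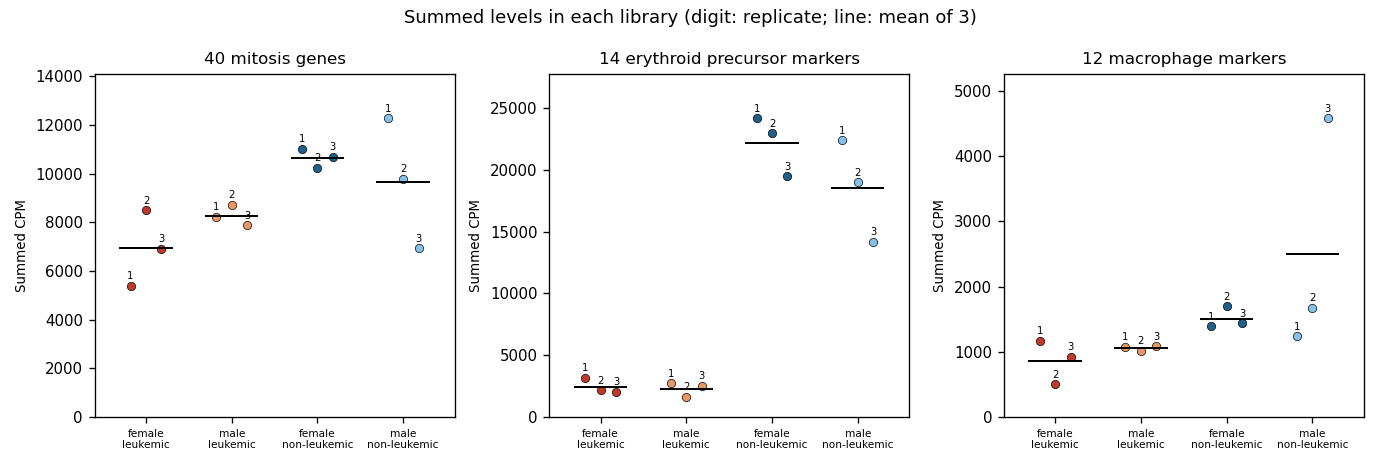
Summed CPM in each library of the 40 mitosis genes and of marker lists of erythroid precursors and macrophages (y axes, from 0; points, libraries with their replicate number; lines, mean of 3). The mitosis sum of male non-leukemic replicate 3, 6931 CPM, lies among the leukemic libraries, between 5399 and 8706 CPM.

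The proliferation antigen Mki67 encodes Ki-67, a protein that coats mitotic chromosomes and is the standard marker of cycling cells. Its level was 69.9, 242, 192, 243, 235 and 181 CPM in leukemic libraries, against 487, 394, 479.9, 553, 365 and 294 CPM in non-leukemic libraries. All 6 leukemic values lay below all 6 non-leukemic ones, and Mki67 was the only mitosis gene of which this held, against 3.63% of all genes tested. A count of 1 among the 40 lies near that share. Its fold change was the most negative of the 40 (log2 fold change -1.25 ± 0.24, SE; adjusted p = 0.0028). Top2a, the topoisomerase that untangles DNA before segregation, measured 269, 750.3, 599, 740.5, 790.3 and 687 CPM in leukemic and 769.6, 702, 787, 935, 790.5 and 513 CPM in non-leukemic libraries; the groups overlapped and the change did not pass (log2 fold change -0.33 ± 0.19, SE; adjusted p = 0.269). Without the 2 libraries that stood apart, Mki67 was at -1.13 ± 0.13 (SE, adjusted p = 0.000136) and Top2a at -0.26 ± 0.085 (SE, adjusted p = 0.0423).

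Mitosis genes are known as targets of repressor and activator complexes that bind 2 promoter elements, the cell cycle genes homology region (CHR; here searched as TTTGAA or TTCGAA) and the CCAAT box bound by NF-Y. To show what this looks like in members that fell and in 1 that did not, the 250 bases before the start site are printed for Mki67, which had the most negative fold change, Aurka, with the lowest p, Cdk1, the kinase at the centre of entry into mitosis, and Ndc80, which did not pass. Sequences are from RefSeq on GRCm38.p6, 5′ to 3′ on the gene's strand, at chr7:135716380-135716629, chr2:172370571-172370820, chr10:69352913-69353162 and chr17:71526858-71527107, all on the minus strand. Capitals mark CHR and CCAAT matches, each searched on both strands (ATTGG is CCAAT on the other strand).
Mki67: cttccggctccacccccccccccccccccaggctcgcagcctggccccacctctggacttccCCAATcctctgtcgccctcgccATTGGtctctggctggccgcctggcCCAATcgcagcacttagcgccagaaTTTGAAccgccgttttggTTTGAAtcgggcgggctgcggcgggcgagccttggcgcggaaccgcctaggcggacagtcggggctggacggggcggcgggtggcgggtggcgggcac
Aurka: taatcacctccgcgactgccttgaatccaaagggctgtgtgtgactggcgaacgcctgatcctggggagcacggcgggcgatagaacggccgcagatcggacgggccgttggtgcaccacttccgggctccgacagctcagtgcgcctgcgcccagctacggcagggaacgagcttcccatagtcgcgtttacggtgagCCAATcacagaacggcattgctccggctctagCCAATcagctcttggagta
Cdk1: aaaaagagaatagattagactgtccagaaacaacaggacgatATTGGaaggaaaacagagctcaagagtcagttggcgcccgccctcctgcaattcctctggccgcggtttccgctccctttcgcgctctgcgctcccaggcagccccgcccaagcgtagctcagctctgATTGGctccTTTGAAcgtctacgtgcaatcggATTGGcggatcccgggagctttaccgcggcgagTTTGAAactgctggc
Ndc80: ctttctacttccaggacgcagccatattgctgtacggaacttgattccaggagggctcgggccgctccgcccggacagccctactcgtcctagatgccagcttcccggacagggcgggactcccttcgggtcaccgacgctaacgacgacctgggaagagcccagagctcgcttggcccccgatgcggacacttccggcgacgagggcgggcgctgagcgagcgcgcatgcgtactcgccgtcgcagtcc

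In Mki67, CCAAT matches stand at -188, -166 and -141 and CHR matches at -116 and -98 from the start site. Cdk1 had CHR matches at -71 and -15 and CCAAT matches at -208, -80 and -48, whereas Aurka had CCAAT matches alone, at -51 and -19. The Ndc80 window held neither. Promoter entries were found for 34 of the 40 genes. A CHR match was in 11 of them (32.4%), against 17.4% of 27025 promoters, and a CCAAT match in 25 (73.5%), against 34.5%. Both were in 10 (29.4%), against 6.21%. Among genes with an entry, CHR matches were in 5 of the 20 that fell and in 6 of the 14 that did not pass, and CCAAT matches in 16 and 9 of them. These are matches of letters and not sites shown to be bound.

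Among the mitotic cyclins and kinases, 8 of 9 genes fell. For this and each role set below, the share of all genes tested that fell was 9.2%. Cdk1, the kinase that starts mitosis, measured 259, 237, 194, 222, 230.5 and 227 CPM in leukemic and 329, 324, 309, 355, 302 and 208 CPM in non-leukemic libraries (log2 fold change -0.48 ± 0.13, SE; adjusted p = 0.0204). Its partner cyclin B1, Ccnb1, measured 198, 199, 141, 201, 186 and 195 CPM in leukemic and 302, 275, 280.1, 314, 264 and 164 CPM in non-leukemic libraries (log2 fold change -0.57 ± 0.15, SE; adjusted p = 0.0156). In both genes the leukemic values were below 5 of the 6 non-leukemic values, and the overlap came from male non-leukemic replicate 3. Plk1, the Polo-like kinase that acts on centrosomes and kinetochores, measured 169, 268, 210.5, 244, 247 and 238 CPM in leukemic and 332, 357, 330.2, 335, 265 and 238 CPM in non-leukemic libraries (log2 fold change -0.51 ± 0.11, SE; adjusted p = 0.00717).

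Cdca3, part of the ubiquitin ligase that removes the Cdk1 inhibitor Wee1, had one of the 4 most negative fold changes. It measured 187, 182, 136, 140.5, 156 and 158 CPM in leukemic and 331, 289.8, 299, 304, 228 and 182 CPM in non-leukemic libraries (log2 fold change -0.82 ± 0.13, SE; adjusted p = 0.000964). Aurka, the Aurora kinase of the spindle poles, had medians of 183 CPM in leukemic and 294 CPM in non-leukemic libraries (log2 fold change -0.78 ± 0.13, SE; adjusted p = 0.000964). Ccna2 (cyclin A2), Ccnb2 (cyclin B2) and Hmmr, a spindle protein, fell too, with log2 fold changes of -0.64, -0.68 and -0.58. Tpx2, which activates Aurka on the spindle, was the exception, with medians of 303 CPM in leukemic and 289 CPM in non-leukemic libraries (log2 fold change -0.24 ± 0.18, SE, adjusted p = 0.43). Female leukemic replicate 1 measured 114 CPM of Tpx2, and the other leukemic libraries 229 to 326 CPM. Without both libraries that stood apart its log2 fold change was -0.15 (adjusted p = 0.295).

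**Figure D3:**
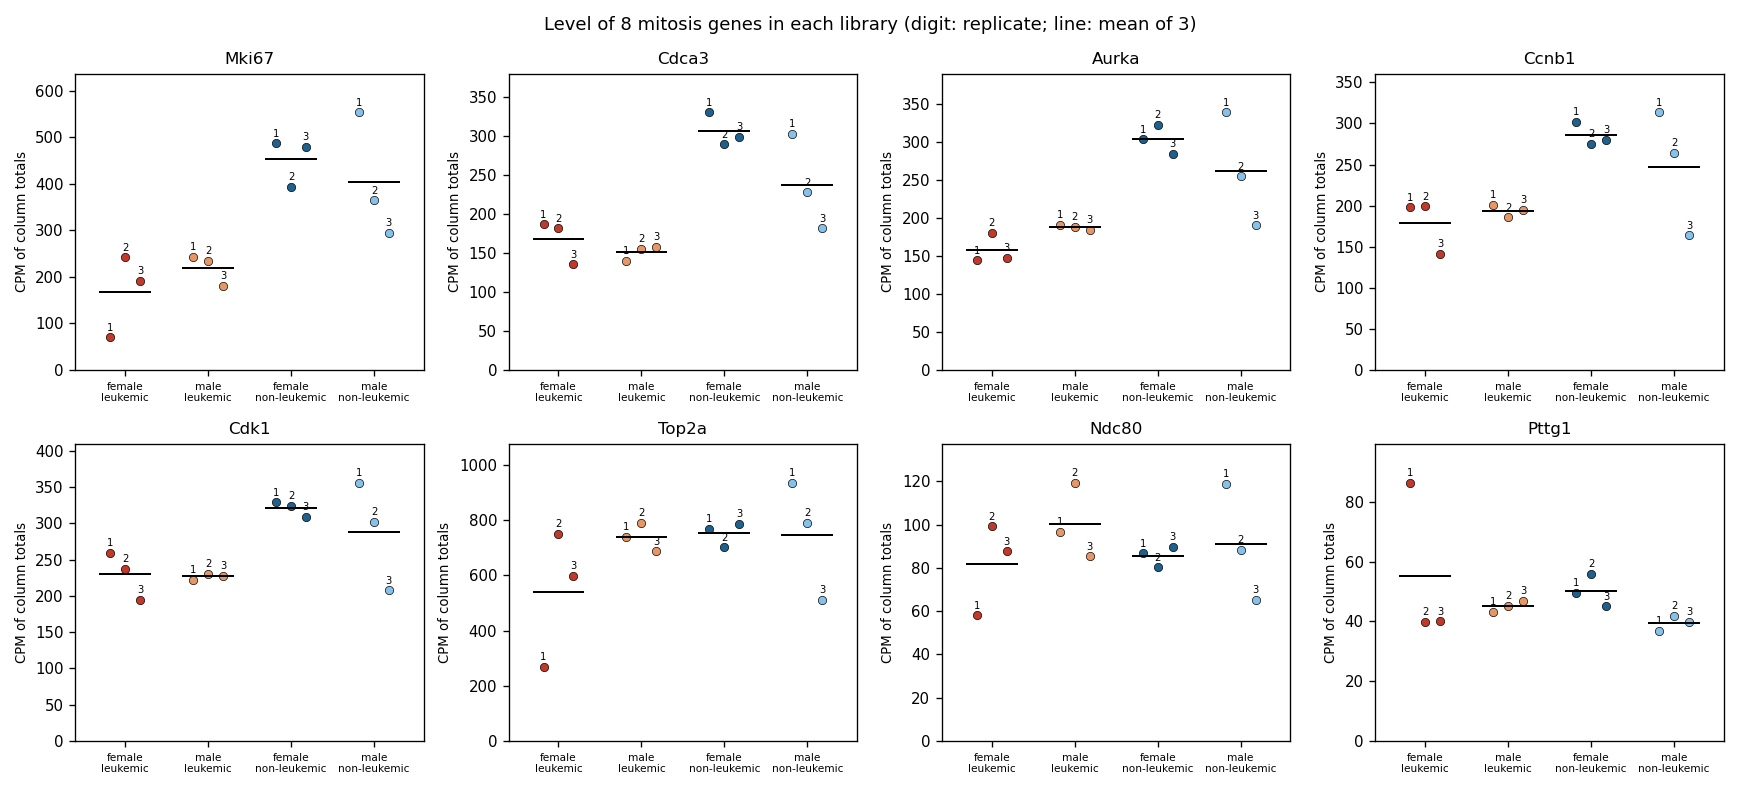
CPM of 8 mitosis genes in each library (y axis, from 0; points, libraries with their replicate number, by sex and condition; lines, mean of 3). The 6 leukemic Mki67 points, 69.9 to 243 CPM, all lie below the 6 non-leukemic points, 294 to 553 CPM, while Pttg1 ranges overlap.

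Of the 4 genes of the chromosomal passenger complex, which corrects faulty attachments and guides cytokinesis, Birc5 (survivin) and Cdca8 (borealin) fell, with log2 fold changes of -0.75 ± 0.14 and -0.46 ± 0.13 (SE). Incenp, the scaffold, and Aurkb, the kinase, did not pass. Aurkb measured 175, 286, 217, 240.5, 265 and 246 CPM in leukemic and 297, 252, 279.6, 310.1, 256 and 185 CPM in non-leukemic libraries, so the groups overlapped (log2 fold change -0.22 ± 0.12, SE; adjusted p = 0.247). Without the 2 libraries that stood apart the same 2 of 4 genes fell.

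Centromere and kinetochore genes fell in 6 of 7 cases. Cenpa, the histone that marks the centromere, had medians of 247 CPM in leukemic and 412 CPM in non-leukemic libraries (log2 fold change -0.72 ± 0.15, SE; adjusted p = 0.00461). Knl1, which recruits the checkpoint proteins, Cenpf and Cenpe, a large kinetochore protein and a kinetochore motor, and Spc25 and Nuf2, subunits of the Ndc80 complex, fell as well, with log2 fold changes of -0.67, -0.78, -0.44, -0.55 and -0.52. Ndc80, the subunit that gives the complex its name, measured 58.04, 99.2, 87.6, 96.5, 119 and 85.4 CPM in leukemic and 86.7, 80.2, 89.8, 119, 88.5 and 65.2 CPM in non-leukemic libraries and did not pass (log2 fold change -0.041 ± 0.14, SE; adjusted p = 0.889). Its value turned to 0.047 without female leukemic replicate 1.

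None of the 4 spindle checkpoint genes passed, by edgeR, DESeq2 or limma-voom, and at an unadjusted p under 0.05 edgeR gave 0, limma-voom 0 and DESeq2 1. In a set of 4 genes, 0 lies near the 9.2% of all genes tested that fell by edgeR. Bub1b (BubR1), which inhibits the anaphase promoting complex, measured 102, 291, 238, 298, 287 and 243 CPM in leukemic and 279, 294, 265, 291, 289 and 224 CPM in non-leukemic libraries (log2 fold change -0.27 ± 0.18, SE; adjusted p = 0.333). Leaving out the low value of 102 CPM, that of female leukemic replicate 1, brought the leukemic values to 238 to 298 CPM, and without both libraries that stood apart the log2 fold change was -0.14 (adjusted p = 0.212). Bub1 and Ttk, checkpoint kinases, and Mad2l1, the inhibitor bound to Cdc20, had log2 fold changes of -0.28, -0.39 and -0.21. Without the 2 libraries that stood apart, Ttk and Mad2l1 fell, with log2 fold changes of -0.38 and -0.35 (adjusted p = 0.031 and 0.00719).

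Of the 4 genes of the anaphase promoting complex and separase, 2 fell. Cdc20, which activates the complex, and Ube2c, the enzyme that feeds it ubiquitin, had log2 fold changes of -0.47 ± 0.11 and -0.53 ± 0.13 (SE; adjusted p = 0.012 and 0.0143). Espl1, the protease separase that cuts cohesin, did not pass, at a log2 fold change of -0.43 ± 0.20 (SE). Without both libraries that stood apart it did, at -0.34 ± 0.12 (adjusted p = 0.0485). Pttg1 (securin), which holds separase inactive, measured 86.3, 39.7, 39.98, 43.3, 45.1 and 46.9 CPM in leukemic and 49.6, 55.96, 45.02, 36.8, 41.8 and 39.9 CPM in non-leukemic libraries (log2 fold change 0.11 ± 0.21, SE; adjusted p = 0.77). Its high leukemic value, 86.3 CPM, was that of female leukemic replicate 1, and without both libraries that stood apart the log2 fold change was -0.13 (adjusted p = 0.453).

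Spindle motors and microtubule proteins fell in 2 of 5 cases, Nusap1, which bundles microtubules at chromosomes, and Dlgap5, which stabilises kinetochore fibres. Kif11, the motor that pushes the spindle poles apart, measured 107, 268, 279, 339, 362 and 299 CPM in leukemic and 263, 241, 329, 424, 263 and 142 CPM in non-leukemic libraries (log2 fold change -0.12 ± 0.25, SE; adjusted p = 0.798). Kif4, a motor of the chromosome arms and the central spindle, measured 37.2, 96.03, 71.2, 106, 119.9 and 98.7 CPM in leukemic and 121, 103, 141, 126, 110.0 and 77.3 CPM in non-leukemic libraries (log2 fold change -0.48 ± 0.20, SE; adjusted p = 0.132). Kif2c, which takes microtubules apart at centromeres, did not pass, at a log2 fold change of -0.24, and was at -0.081 without the 2 libraries that stood apart (adjusted p = 0.674). Without the 2 libraries that stood apart Kif4 fell too, by 0.40 on the log2 scale (adjusted p = 0.037).

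In the cytokinesis set, 1 of 5 genes fell, which in so small a set lies near the 9.2% of all genes tested. Prc1, which crosslinks the microtubules of the central spindle, measured 49.4, 192, 153, 194, 199 and 173 CPM in leukemic and 313, 257, 266, 317, 262 and 173 CPM in non-leukemic libraries (log2 fold change -0.84 ± 0.25, SE; adjusted p = 0.0315). Anln (anillin), the scaffold of the contractile ring, had a fold change of like size and a wider error: it measured 17.2, 82.4, 77.7, 94.98, 58.7 and 75.4 CPM in leukemic and 121, 98.95, 109, 164, 87.2 and 69.5 CPM in non-leukemic libraries (log2 fold change -0.78 ± 0.30, SE; adjusted p = 0.0967). By edgeR, Anln passed in none of the 12 fits that left out 1 library, while DESeq2 called it lower with all 12 libraries. Ect2, which activates RhoA at the cleavage site, measured 66.5, 152, 113, 127, 130.0 and 128 CPM in leukemic and 115, 113, 125, 148, 121 and 73.5 CPM in non-leukemic libraries (log2 fold change -0.046 ± 0.17, SE; adjusted p = 0.894). Kif20a and Kif23, motors of the central spindle, did not pass, at -0.43 and -0.17. Without both libraries that stood apart, Anln and Kif20a joined Prc1, with log2 fold changes of -0.65 ± 0.18 and -0.39 ± 0.13 (SE; adjusted p = 0.0178 and 0.0399).

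With both libraries that stood apart left out, 29 of the 40 genes fell and none rose, against 14.1% of all genes tested that were lower and 14.9% that were higher; the median log2 fold change was -0.46. The added genes were Anln, Espl1, Kif20a, Kif4, Mad2l1, Top2a and Ttk. Non-overlap between groups, seen for Mki67 alone, extended to 21 genes when male non-leukemic replicate 3 was left out (7.23% of all genes tested) and to 22 when both were (9.37%). Male non-leukemic replicate 3 was the lowest non-leukemic library for 38 of the 40 genes, and female leukemic replicate 1 the lowest leukemic library for 29 and the highest for 6. Both were left out with these values known. Removing the lowest non-leukemic library favours non-overlap whatever the other libraries hold. The counts without these libraries therefore describe the remaining libraries and add no support of their own.

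The deviation of female leukemic replicate 1 varied with gene length. Relative to the mean of the other 5 leukemic libraries, its log2 level of the mitosis genes ran from 1.00 for Pttg1 to -2.13 for Anln. Among the 17 genes with a coding sequence under 1.5 kb the median log2 ratio was 0.11, among 12 genes of 1.5 to 3 kb it was -1.08, and among 11 longer genes it was -1.40. Across the 40 genes, Spearman's rho of this ratio with coding length was -0.808, and -0.544 with the length of the longest transcript; over 12919 tested genes of known length they were -0.50 and -0.48. Levels in other libraries varied with coding length too, each set against the other libraries of its condition. Across the 40 genes the rho ran from 0.343 to 0.791 in the other leukemic libraries, whose reference included female leukemic replicate 1. In non-leukemic libraries it ran from -0.663 to 0.501. These are descriptions within one set of libraries, and coding length was added after the result with transcript length had been seen. Female leukemic replicate 1 also detected the fewest genes, 17891, against 19964 to 21247 in the other leukemic libraries. The log2 fold changes of the main comparison had a rho of 0.0845 with coding length, and of 0.259 without both libraries.

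**Figure D4:**
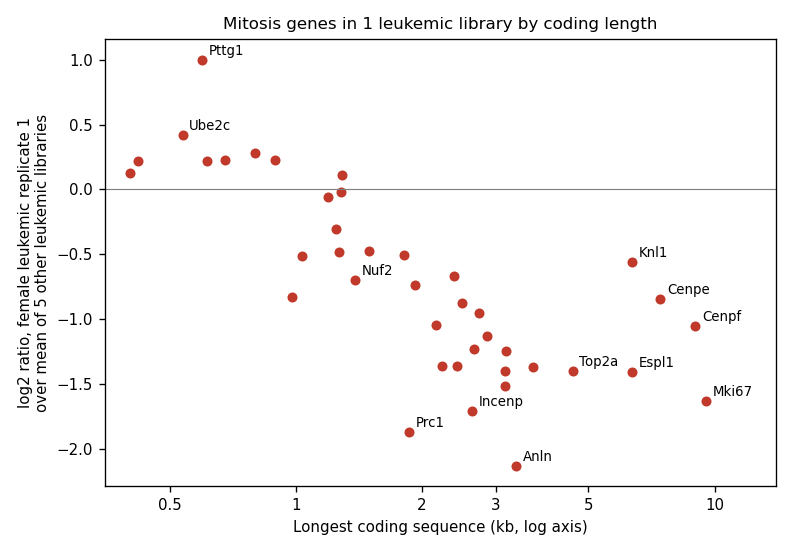
Log2 ratio of female leukemic replicate 1 to the mean of the other 5 leukemic libraries (y axis, from CPM plus 0.5) against the longest coding sequence of each of the 40 mitosis genes (x axis, kb, log scale). All 12 genes of 1.5 to 3 kb and all 11 longer genes lie below 0, as do 8 of the 17 shorter ones.

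The study sampled both sexes, and the fit with a mean for each group gives the difference within each. In females 11 of the 40 genes fell, against 4.59% of all genes tested: Mki67, Cdca3, Plk1, Aurka, Cenpa, Birc5, Cenpf, Cdc20, Hmmr, Ccnb2 and Ccna2. In males 3 fell, which in a set of 40 lies near the 4.04% of all genes tested: Spc25, Cdca3 and Aurka. None rose in either sex by edgeR, DESeq2 or limma-voom, also at an unadjusted p under 0.05, against 3.84% of all genes tested that rose in females and 3.34% in males. Aurka and Cdca3 passed in both; Aurka was at -0.95 ± 0.17 in females and -0.62 ± 0.17 in males, and Cdca3 at -0.85 ± 0.19 in females and -0.80 ± 0.19 in males (log2, SE). The median log2 fold change was -0.58 in females and -0.36 in males, and 34 of 40 genes were negative in both sexes. These counts were not stable. DESeq2 gave 20 in females (against 7.35% of all genes tested) and 7 in males (7.08%), and leaving out both libraries that stood apart gave 21 in females (7.53%) and 19 in males (8.37%). Female calls numbered 1 without female leukemic replicate 3, female non-leukemic replicate 1 or female non-leukemic replicate 3, and 2 without female non-leukemic replicate 2; the shares of all genes tested were then 2.56%, 1.72%, 2.3% and 2.5%, so these counts of 40 lay near the background. They numbered 4 without any 1 of the 3 male leukemic libraries (3.19% to 3.36% of all genes tested) and 5 without male non-leukemic replicate 2 (3.56%). Male calls numbered 12 without male non-leukemic replicate 3 (4.42%) and 6 without female leukemic replicate 1 (6.77%). They numbered 1 without female non-leukemic replicate 1 or 3, near the 2.65% and 2.83% of all genes tested. Without any 1 male leukemic library or male non-leukemic replicate 1 or 2 the male count was 0, against 1.56% to 2.8% of all genes tested.

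The difference between the sexes was tested directly, as the effect in females minus the effect in males. It passed for 0 of the 40 genes by edgeR, DESeq2 and limma-voom; by edgeR 1 gene had an unadjusted p under 0.05, as did 925 of 15758 genes, of which 0 passed after adjustment. The 2 lowest p-values were those of Kif20a (-0.80 ± 0.35, SE; unadjusted p = 0.0411, adjusted p = 0.819) and Kif4 (-0.77 ± 0.36, SE; unadjusted p = 0.0525, adjusted p = 0.819). Kif20a measured 69.03, 151, 124, 181, 192 and 173 CPM in leukemic and 213, 172, 218, 230.1, 162 and 112 CPM in non-leukemic libraries, and its male values overlapped. Without both libraries that stood apart, the interaction values were -0.40 for Kif20a and -0.38 for Kif4 (edgeR, unadjusted p = 0.116 and 0.142). The lowest unadjusted p of the 40 genes was then that of Pttg1 (-0.49 ± 0.19, SE, unadjusted p = 0.0264, adjusted p = 0.621). Female libraries minus male libraries gave 0 called mitosis genes by edgeR, within the leukemic and within the non-leukemic group. In the leukemic group 3 had an unadjusted p under 0.05 (lowest adjusted p = 0.568). In the non-leukemic group 0 had (lowest adjusted p = 0.955). DESeq2 and limma-voom also called 0 mitosis genes in both groups. Of all genes tested, edgeR and limma-voom called 0.0% in both groups. DESeq2 called 0.209% lower and 0.552% higher in females of the leukemic group, and 0.121% and 0.0952% in the non-leukemic group. By edgeR, then, no gene of the sex chromosomes passed either. The sex labels were not checked against such genes, and the results by sex rest on the labels.

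**Figure D5:**
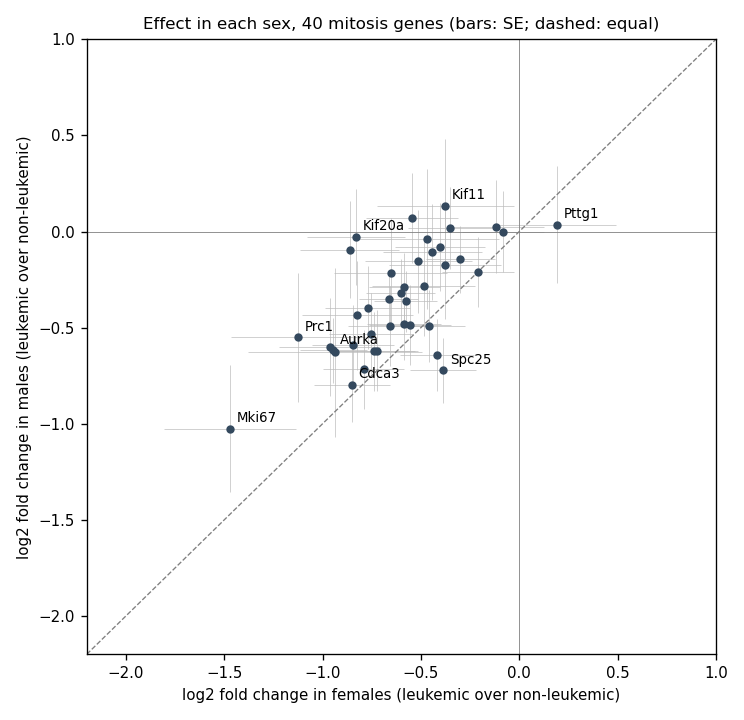
Log2 fold change (leukemic over non-leukemic) of the 40 mitosis genes in females (x axis) and in males (y axis), with bars for the standard error; the diagonal marks equal values. Most points lie below 0 on both axes, with medians of -0.58 and -0.36 in females and males. All 12 libraries are included, also those that stood apart.

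Other cell cycle genes were counted from lists outside the 40, in the same fit, in which 9.2% of all genes tested fell and 8.71% rose. S-phase genes, which replicate DNA, fell in 14 of 20 cases with a median log2 fold change of -0.62; Cdt1, a licensing factor, Rrm2, a ribonucleotide reductase subunit, and Tk1, thymidine kinase, were at -0.99, -1.16 and -1.196. Other centromere and kinetochore genes fell in 14 of 32 cases (median -0.49), with Cenpl, Cenph and Ska1 at -0.80, -1.05 and -0.80. Condensin and cohesin genes fell in 6 of 19 (median -0.45), with Ncaph2, Smc2 and Smc4 at -0.61, -0.78 and -0.57, and mitotic entry genes in 5 of 15 (median -0.39), with Ccnf, Ensa and Cdc25c at -0.73, -0.39 and -0.71. None of these lists held a gene that rose, by edgeR, DESeq2 or limma-voom, nor one at an unadjusted p under 0.05 in that direction.

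Other spindle and cytokinesis genes fell in 4 of 25 cases (median -0.45), among them Kif22 (-0.68) and Fam83d (-0.70), while 1 rose, the midbody gene Cep55 (0.79 ± 0.13, SE; adjusted p = 0.00118). Other checkpoint and anaphase promoting complex genes fell in 2 of 21, near the 9.2% of all genes tested that fell (median -0.17), Fzr1 and Fbxo5 (-0.48 and -0.66); Anapc5, at -0.30, did not pass, and 0 rose by edgeR and limma-voom, with 1 at an unadjusted p under 0.05 and 1 by DESeq2. Cell cycle transcription factors fell in 7 of 20 cases (median -0.20), with E2f2, Tfdp2 and E2f4 at -1.48, -1.71 and -0.93, while E2f5 rose (1.12). G1 cyclins, kinases and inhibitors split, with 6 of 17 lower and 6 higher (median -0.14). Ccnd3, Ccne1 and Ccne2 fell, with values of -1.14, -1.93 and -1.05. Ccnd2 and the inhibitor Cdkn1a (p21), chosen after their values were seen, rose by 0.99 and 1.25. They were not the extreme of the list, whose highest log2 fold change was 4.81.

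Markers of other cell types moved with the same comparison, in which 9.2% of all genes tested fell and 8.71% rose. All 14 erythroid precursor markers fell, as did 7 of 12 macrophage and 7 of 9 late neutrophil markers, and 12 of 12 T and NK cell markers (1314 to 2744 CPM summed in leukemic and 306 to 602 CPM in non-leukemic libraries) and 7 of 9 stem and progenitor markers (1172 to 2068 and 719 to 1150 CPM in leukemic and non-leukemic libraries) rose. Of 11 eosinophil, basophil and mast cell markers 4 rose and 2 fell, of 7 early granulocyte markers 1 fell, and of 5 megakaryocyte markers tested 1 rose and 1 fell. Of 10 B lineage markers 0 passed by any of the 3 tools, with 0 at an unadjusted p under 0.05. In lists this short, counts of 0 or 1 lie near the shares of all genes tested. B lineage markers summed to 11100 CPM in female leukemic replicate 1, against 1085 to 5297 CPM in the other leukemic libraries. No marker was at 0 in every library. The part of these cell types in the mitosis result was not tested.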

How the data were processed

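RNA from sorted macrophages was amplified with a full-length cDNA kit that does not mark strand, and the authors deposited raw read counts per gene for 12 libraries. Per the submitters' processing notes the tools were bcl2fastq 2.19.1, fastp 0.23.1, STAR 2.7.9a, featureCounts of Subread 2.0.1 and DESeq2 1.28.1 in R 4.0.2, with the build GRCm39. Reads of overlapping or antisense genes cannot be told apart. From these counts, edgeR 4.0.16 (R 4.3.3; TMM scaling, filterByExpr, robust quasi-likelihood test, two-sided) was fitted to all 12 libraries with condition and sex, or with 4 group means for the effects within each sex, their interaction and sex differences. Benjamini-Hochberg adjustment ran over 15758 genes, with a threshold of 0.05. Levels are CPM of column totals. RLE scaling, DESeq2 1.42.0, limma-voom (limma 3.58.1), other filters, a replicate block and omitted libraries were alternatives.

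The mitosis genes, the other lists, the tests and the omission of both libraries that stand apart were chosen with earlier results of these data known. Values in every library are given for Mki67, Top2a, Cdk1, Ccnb1, Aurkb, Plk1 and Bub1b, for the 4 most positive and 4 most negative fold changes and for the 2 lowest interaction p-values; each pathway list is represented by its 3 lowest p-values. Promoters are from RefSeq (GRCm38.p6) and lengths from GENCODE M21, neither being the build of the counts, and are matched by symbol. No 2 libraries of a group agreed within sampling noise (lowest chi-square per degree of freedom 22.6). Counting intervals are Wilson intervals, which cover counting error only; that of a library's mitosis share was no wider than 0.973% to 0.982%.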

Additional observations from a re-analysis of the deposited data

Results flagged for a closer look

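Of 82 sets of 6 libraries examined (40 mitosis genes and their sum, in each condition), 16 held a library whose gap to its nearest neighbour exceeded the 95% critical value of Dixon's test; chance alone flags about 5% of sets.

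Female leukemic replicate 1 accounted for 11 of the 16. In 10 genes it was the lowest leukemic library: Incenp (76.4 CPM, the other leukemic libraries 234 to 278 CPM), Cdca8 (172 CPM, others 275 to 331), Bub1b (102 CPM, others 238 to 298), Ttk (30.9 CPM, others 51.3 to 61.0), Espl1 (45.1 CPM, others 107 to 134), Kif11 (107 CPM, others 268 to 362), Dlgap5 (46.7 CPM, others 107 to 131), Prc1 (49.4 CPM, others 153 to 199), Mki67 (69.9 CPM, others 181 to 243) and Top2a (269 CPM, others 599 to 790.3). In Pttg1 it was the highest, at 86.3 CPM, with the others at 39.7 to 46.9 CPM.

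Male non-leukemic replicate 3 was the lowest non-leukemic library for Cdk1 (208 CPM, others 302 to 355), Ccnb1 (164 CPM, others 264 to 314), Hmmr (139 CPM, others 253 to 303) and Mad2l1 (134 CPM, others 192 to 210.1). Ccnb1 was also set apart in female leukemic replicate 3 (141 CPM, the other leukemic libraries 186 to 201).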

How the results depend on the processing

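The number of mitosis genes that fell with leukemia was 22, against 9.2% of all genes tested. It was again 22 with RLE scaling (8.92%), limma-voom (9.7%), a filter of 5 CPM in 3 libraries (12.1%) or no sex term (9.17%). It was 23 with DESeq2 (11.6%), 19 with no filter (4.08%) and 29 without both libraries that stood apart (14.1%). With 1 library left out it was 14 (6.14%) to 24 (9.94%), and none rose. In females, where 11 fell (4.59%), DESeq2 gave 20 (7.35%), omission of both libraries 21 (7.53%) and omission of 1 library 1 to 16. In males, where 3 fell (4.04%), these were 7 (7.08%), 19 (8.37%) and 0 to 12. The low ends of the female and male ranges lay near the shares of all genes tested, as given above. The interaction and the sex differences gave 0 in each setting run. The cause of these shifts was not tested.

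Libraries of the same replicate number shared no strong deviation. Their correlations of deviations ran from -0.113 to 0.0782, with 0 of 18 over 0.1. Between differently numbered libraries they ran from -0.0944 to 0.107, with 1 of 36 over 0.1. Whether equal numbers mark a shared batch cannot be told from these values. A replicate block gave 19 genes, losing Cenpe, Dlgap5 and Prc1, against 8.11% of all genes tested. It gave 8 in females (3.94%) and 2 in males, near the 3.13% of all genes tested. Of single genes, 4 that did not pass changed sign. Pttg1 was at -0.13 without both libraries and at -0.14 to 0.24 with 1 library left out; over the same omissions Ect2 ran from -0.146 to 0.0788, Kif11 from -0.281 to 0.066 and Ndc80 from -0.116 to 0.0851. The mean summed level was 7350.7 CPM in leukemic and 10390.2 CPM in non-leukemic libraries on TMM scaling, and 7375 to 8036 and 9733 to 10800 CPM when 1 library was left out. The length relation of female leukemic replicate 1 was -0.544 with transcript and -0.808 with coding length.

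There were 3 libraries per sex and condition, and each mitosis gene had 516 counts or more in each library. Amplified counts carry no molecular identifiers. Condition and the makeup of the sorted cells changed together and cannot be told apart.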
